A study of Mus musculus with 6 samples.

Results

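The genes described here are the transcription factor gene Nfe2l2 and 9 genes of the oxidative stress response that its product, Nrf2, is known to drive: Hmox1, Nqo1, Gclm, Gclc, Srxn1, Txnrd1, Slc7a11, Prdx1 and Gsr. They were found by their symbols among the 54446 genes counted, and all 10 were present, each with at least 10 counts in every library. RNA was sequenced from mouse bone marrow-derived macrophages (BMDMs) of BALB/c mice, males of 6 to 8 weeks, grown for 7 days with 20% medium conditioned by L929 cells. The study asked how regorafenib, a multikinase inhibitor used against liver cancer, acts on macrophage polarization. M0 cells received no polarizing cytokine, M1 cells were given IFN-γ at 20 ng/mL and LPS at 50 ng/mL, and M2 cells were given IL4 at 20 ng/mL, each for 24 h. In each state 1 library came from cells with the DMSO vehicle (control) and 1 from cells given regorafenib at 1 µM, starting 1 h before polarization. These 6 libraries have no replicates, so a difference between 2 of them carries an interval for counting error only and no p-value. How many mice gave the cells of a library is not given in the sources used here.

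Nrf2 is held at low levels by Keap1, an adaptor that marks it for degradation, and it is released when oxidants or electrophiles modify Keap1. It then pairs with a small Maf protein and binds the antioxidant response element in front of its target genes, in competition with the repressor Bach1. The targets make and recycle glutathione, reduce thioredoxin and peroxiredoxins, break down heme and detoxify quinones. In macrophages this programme is known to accompany inflammatory activation, which generates oxidants. Since Nrf2 is controlled mainly through its stability, the transcript of Nfe2l2 does not measure its activity.

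Library totals lay between 25359309 and 34898342 counts. The summed level of 10 macrophage markers (Adgre1, Cd68, Csf1r and others) lay between 22500 and 49460 CPM (counts relative to the library total, after scaling between libraries with TMM, a trimmed mean of gene ratios). The summed level of 6 M1 markers was 18820 CPM in M1 control and 12630 CPM in M1 with regorafenib, and between 41.2 and 111 CPM in the other 4 libraries. The summed level of 6 M2 markers was 1432 CPM in M2 control and 785 CPM in M2 with regorafenib. All 6 lymphocyte markers had 3 or fewer counts in every library. Fibroblast markers summed to at most 10.2 CPM. Of 7 neutrophil markers Ly6g, Elane and Ngp were at 3 or fewer counts, and the list summed to between 84.8 and 158 CPM. Of 6 dendritic cell markers Flt3, Clec9a and Siglech were at 3 or fewer counts, and the list summed to 32.0 and 38.8 CPM in the M1 libraries and to at most 2.54 CPM elsewhere. In bulk RNA, fewer cells of a type and less RNA per cell cannot be told apart.

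Upstream sequences are shown for 4 members to place the antioxidant response element, written in its short form as TGACNNNGC and searched on both strands. RefSeq promoter entries (GRCm38.p6) were matched for 7 members in 9 windows; Gsr, Gclc and Hmox1 were not matched. In the 250 bases before the start site, 4 of the 9 windows held TGACNNNGC (44.4%), against 10.2% of 32851 RefSeq promoters. The letters TGACTCAGC are 1 instance of that form and stood in 0.39% of all promoters, and TGAGTCAGC, which differs from the short form, stood in 0.347%. Capitals mark the match, and bases that Gencode M21 assigns to an exon of the gene were left off the 3′ end. Srxn1 lies on chr2:152105274-152105515 (plus strand), Prdx1 on chr4:116685349-116685543 (plus strand), Gclm on chr3:122245307-122245556 (plus strand) and Slc7a11 on chr3:50443615-50443863 (minus strand).
Srxn1: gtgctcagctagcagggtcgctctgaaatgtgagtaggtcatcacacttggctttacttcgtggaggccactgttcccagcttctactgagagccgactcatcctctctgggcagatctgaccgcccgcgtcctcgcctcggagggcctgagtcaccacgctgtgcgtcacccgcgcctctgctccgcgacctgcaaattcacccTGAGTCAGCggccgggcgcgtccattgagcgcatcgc
Prdx1: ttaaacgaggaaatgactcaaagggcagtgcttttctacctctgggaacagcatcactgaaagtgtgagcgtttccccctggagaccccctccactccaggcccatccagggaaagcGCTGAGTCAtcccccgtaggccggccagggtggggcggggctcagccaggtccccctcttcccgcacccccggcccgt
Gclm: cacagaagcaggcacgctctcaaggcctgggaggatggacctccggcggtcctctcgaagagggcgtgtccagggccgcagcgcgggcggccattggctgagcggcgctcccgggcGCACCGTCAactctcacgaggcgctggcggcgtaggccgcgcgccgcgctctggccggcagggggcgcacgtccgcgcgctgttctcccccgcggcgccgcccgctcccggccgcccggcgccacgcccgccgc
Slc7a11: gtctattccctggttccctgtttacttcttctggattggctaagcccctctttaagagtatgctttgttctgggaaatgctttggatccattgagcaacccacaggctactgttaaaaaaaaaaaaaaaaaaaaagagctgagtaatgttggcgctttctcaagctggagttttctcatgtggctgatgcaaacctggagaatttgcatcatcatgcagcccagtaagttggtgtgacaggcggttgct
The match in Srxn1 is TGAGTCAGC, and it begins 45 bases before the start site. In Prdx1 the match is TGACTCAGC read on the opposite strand, 125 to 133 bases before the start site, so the printed strand shows its complement. In Gclm it is TGACGGTGC, also on the opposite strand. Slc7a11, which had the widest range of levels among the members, had none of these motifs in the window, and neither did Nqo1. The remaining matches were TGACTCCGC in Nfe2l2, which begins 240 bases before the start site, and TGACAAAGC in 1 of 3 windows of Txnrd1. A match is a string of letters, and binding was not measured.

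Compared per length of transcript (RPKM, the CPM divided by the exon length in kilobases), Prdx1 and Hmox1 were the most abundant of the 10 members in all 6 libraries. Prdx1, a peroxidase that removes hydrogen peroxide, lay between 375 and 2077 RPKM, and Hmox1, heme oxygenase-1, between 205 and 1916 RPKM. The lowest was Slc7a11 in the M0 and M2 libraries, with 0.722 to 1.71 RPKM, and Nqo1 in the M1 libraries, with 9.22 RPKM in control and 4.70 RPKM with regorafenib. Slc7a11 stood at 55.6 RPKM in M1 control, above Gclm, Gclc and Nqo1. The span from the lowest to the highest library was 1.55-fold for Nfe2l2 and 76.9-fold for Slc7a11, with the other 8 between 1.86-fold (Gclm) and 9.34-fold (Hmox1).

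**Figure D1:**
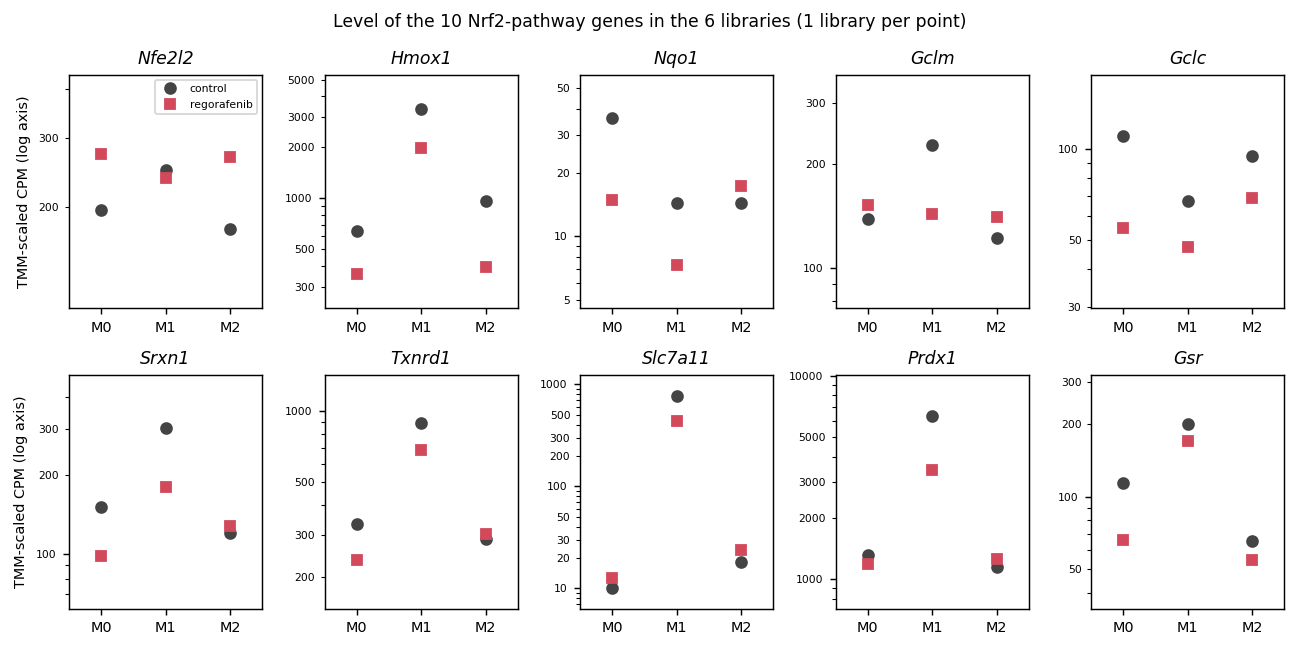
TMM-scaled CPM (log axis) of the 10 genes by state, with circles for control and squares for regorafenib, 1 library per point. In M1 control Slc7a11 reached 774 CPM and Hmox1 3355 CPM, and in M1 every square lies below its circle.

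The regulator itself varied least. Nfe2l2 (chr2:75675513-75704641) was at 196 CPM in M0 control, 272 in M0 with regorafenib, 248 in M1 control, 236 in M1 with regorafenib, 176 in M2 control and 268 in M2 with regorafenib. The M0 and M2 regorafenib libraries were highest and differed from each other by less than counting error (log2 difference -0.02, 95% interval -0.07 to 0.02).

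Among the genes of glutathione synthesis, Slc7a11 (chr3:49892526-50443614), which encodes the cystine importer xCT, was at 10.1 CPM in M0 control, 12.7 in M0 with regorafenib, 774 in M1 control, 437.5 in M1 with regorafenib, 18.3 in M2 control and 23.8 in M2 with regorafenib. Both M1 libraries stood far above the other 4. Gclc (chr9:77754535-77794485), the catalytic subunit of glutamate-cysteine ligase, was at 110.2 and 54.9 CPM in M0 (control, then regorafenib), at 67.1 and 47.4 CPM in M1 and at 94.8 and 68.7 CPM in M2. Its regorafenib library was the lower in each state. Gclm (chr3:122245557-122270732), the modifier subunit, was at 138 and 152 CPM in M0, at 227 and 143 CPM in M1 and at 122 and 141 CPM in M2. M1 control stood above the other 5 libraries. Of the exon bases of Gclm 4.71% overlap Gm17494 on the opposite strand and 3.88% a pseudogene, Gm6061, on the same strand, so its counts may include reads of these. Gsr (chr8:33652523-33698163), which regenerates reduced glutathione, was at 114 and 65.9 CPM in M0, at 201 and 170.2 CPM in M1 and at 65.7 and 54.9 CPM in M2. Both M1 libraries were the highest for Gsr.

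In the thioredoxin branch, Txnrd1 (chr10:82833951-82897712), thioredoxin reductase, was at 335 and 234 CPM in M0, at 889 and 686 CPM in M1 and at 289.6 and 302 CPM in M2. Srxn1 (chr2:152105516-152111376), sulfiredoxin, which repairs over-oxidised peroxiredoxins, was at 151 and 98.2 CPM in M0, at 303.5 and 181 CPM in M1 and at 120.1 and 127.5 CPM in M2. Prdx1 (chr4:116685544-116700822) was at 1311 and 1189 CPM in M0, at 6319 and 3422 CPM in M1 and at 1140 and 1250 CPM in M2. For these 3 genes both M1 libraries lay above the other 4, and M1 control was the highest.

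Hmox1 (chr8:75093621-75100589), which breaks heme down to biliverdin, iron and carbon monoxide, was at 639 and 359 CPM in M0, at 3355 and 1984 CPM in M1 and at 963 and 392 CPM in M2. Its regorafenib library was the lower in each state. Nqo1 (chr8:107388225-107403206), a quinone reductase often used as a readout of Nrf2, was at 36.3 and 14.9 CPM in M0, at 14.3 and 7.30 CPM in M1 and at 14.4 and 17.3 CPM in M2. M0 control stood above the other 5 libraries, and the controls of M1 and M2 differed by less than counting error under TMM (log2 difference -0.01, 95% interval -0.21 to 0.18), though not with total counts (-0.36).

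M1 against M0 asked which members moved with IFN-γ and LPS. Between the control libraries Slc7a11 was 76.9-fold higher in M1, Hmox1 5.25-fold, Prdx1 4.82-fold, Txnrd1 2.65-fold and Srxn1 2.01-fold, whereas Nqo1 was 2.54-fold lower. Thus 5 of 10 members were past 2-fold higher and 1 past 2-fold lower, where 17.4% and 20.1% of the 14917 genes reaching 10 counts in some library were (37.5% in either direction). Scaled by total counts the split was 3 higher and 2 lower, with Txnrd1 at 0.97 and Srxn1 at 0.57 on the log2 scale, short of 2-fold, and Gclc at -1.16, past it. The median log2 ratio of the members under TMM was 0.91, against -0.05 over all those genes. Srxn1 sat at the limit, with a log2 ratio of 1.01 (95% interval 0.96 to 1.06). Below it, Gsr was at 0.82, Gclm at 0.71, Nfe2l2 at 0.34 and Gclc at -0.72. The 2 subunits of glutamate-cysteine ligase thus had log2 ratios of opposite sign.

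Under regorafenib the M1 library again had 5 members past 2-fold higher and 1 lower than the M0 library, against backgrounds of 16.9% and 21.9% (38.8% in either direction). Slc7a11 was 34.4-fold higher, Hmox1 5.52-fold, Txnrd1 2.93-fold, Prdx1 2.88-fold and Gsr 2.58-fold, and Nqo1 was 2.04-fold lower. The call for Nqo1 was lost with DESeq2 size factors (log2 ratio -0.96) and with 1 CPM added (-0.94), and total counts left 4 members higher and 1 lower. Srxn1 was at a log2 ratio of 0.88 and Gclm at -0.08.

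The 6 libraries allow 1 kind of test, an edgeR quasi-likelihood fit with a term for state and a term for treatment, where each state has 2 libraries and the spread is the part of the response that differs between states. It gives p-values for the spread between these libraries, with 2 residual degrees of freedom. For M1 against M0, 6 of 10 members rose and none fell, against 18.5% of 14110 genes higher and 36.7% in either direction. The log2 fold change was 5.78 ± 0.40 (SE) for Slc7a11 (adjusted p = 6.35e-04), 2.49 ± 0.23 for Hmox1 (adjusted p = 0.0013) and 1.98 ± 0.31 for Prdx1 (adjusted p = 0.0059). It was 1.53 ± 0.21 for Txnrd1 (adjusted p = 0.0039), 1.14 ± 0.20 for Gsr (adjusted p = 0.0080) and 1.01 ± 0.24 for Srxn1 (adjusted p = 0.0238). Nqo1 did not pass, at -1.15 ± 0.40 (adjusted p = 0.0714), nor did Nfe2l2, at 0.14 ± 0.22 (adjusted p = 0.6571). The members that rose therefore take up cystine, recycle glutathione and thioredoxin, reduce peroxides and degrade heme, and neither glutamate-cysteine ligase subunit passed. From M0 to M1 control the summed dendritic cell markers went from 0.553 to 32.0 CPM, the neutrophil markers from 84.8 to 157 CPM and the fibroblast markers from 3.19 to 9.10 CPM. Under regorafenib the dendritic cell markers went from 0.303 to 38.8 CPM, the neutrophil markers from 158 to 109.7 CPM and the fibroblast markers from 10.2 to 6.85 CPM, so the last 2 moved the other way. The part of these markers in the changes was not tested.

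The call for Srxn1 was lost without the M1 control library (adjusted p = 0.0888) or the M0 regorafenib library (adjusted p = 0.0725). Nqo1 passed without the M0 regorafenib library (adjusted p = 0.0114), the M2 control library (adjusted p = 0.0170) or the M2 regorafenib library (adjusted p = 0.0223), as it did with DESeq2 (adjusted p = 0.0292) and with no filter on low counts (adjusted p = 0.0108), and in these cases 1 member fell. Without the M0 control library the log2 fold change of Nqo1 was -0.61 (adjusted p = 0.3308), and without the M1 regorafenib library -0.95 (adjusted p = 0.2156). Gclm passed as higher against M0 without the M1 regorafenib library (adjusted p = 0.0182). Scaling by total counts lowered the median M1 to M0 ratio of all genes by 0.44 on the log2 scale in control. Relative to that scale the Nfe2l2 ratio in control turned from 0.34 to -0.10, Srxn1 no longer passed (adjusted p = 0.1307), Gclc and Nqo1 passed as lower (adjusted p = 0.0163 and 0.0239), and 1629 genes rose and 5113 fell, where TMM gave 2609 and 2565.

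**Figure D2:**
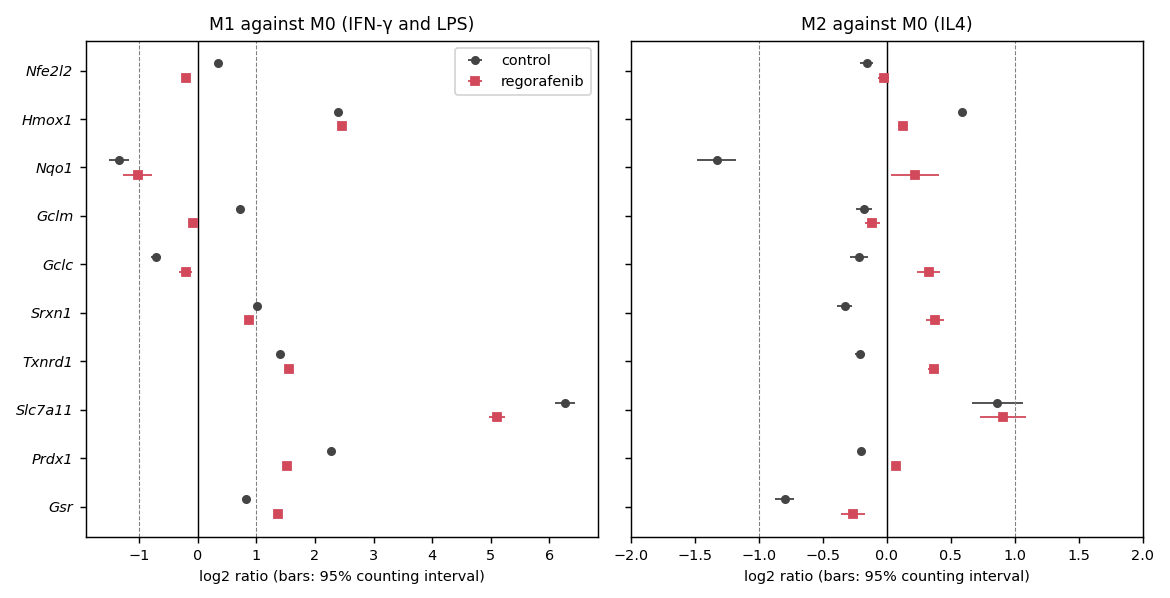
Log2 ratio of each gene in M1 against M0 (left) and in M2 against M0 (right), for control (circles) and regorafenib (squares) libraries, with 95% counting intervals and dashed lines at 2-fold. Under TMM scaling 5 members lie past 2-fold higher in M1 in each treatment (3 and 4 with total counts), while in M2 Nqo1 in control, at -1.33, is the 1 point past 2-fold.

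M2 against M0 asked the same for IL4. Between the control libraries Nqo1 was 2.52-fold lower and no member was past 2-fold higher, against backgrounds of 8.82% lower and 5.23% higher (14% in either direction). Slc7a11 was 1.82-fold higher and Hmox1 higher by a log2 ratio of 0.59, and Gsr was 1.74-fold lower. Of the 10 members 8 had a lower value in M2, with a median log2 ratio of -0.21 against 0.00 over all genes. Under regorafenib no member was past 2-fold, against 5.7% of genes higher, 5.79% lower and 11.5% in either direction. There 7 members had a higher value in M2 and 3 a lower, with a median of 0.17 against -0.03 over all genes (with DESeq2 size factors 2 were lower, Nfe2l2 at -0.02 under TMM changing sign). Slc7a11 was at a log2 ratio of 0.91, Txnrd1 and Srxn1 at 0.37 and 0.38, and Nqo1 at 0.22. In the edgeR fit none of the 10 members passed, against 0.198% of genes. At an unadjusted p under 0.05 it held 1309 genes, 2 of them members. These were Slc7a11 (log2 fold change 0.89 ± 0.33, edgeR adjusted p = 0.4859) and Gsr (-0.53 ± 0.20, edgeR adjusted p = 0.4853). DESeq2 passed none of the 10 either. Slc7a11 passed without the M1 control library (adjusted p = 0.0488) or the M1 regorafenib library (adjusted p = 0.0489).

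M1 and M2, the polarized states, were also compared with each other. In control 6 of 10 members were past 2-fold higher in M1 and none past 2-fold lower (backgrounds 18.2% and 20.2%, and 38.3% in either direction), namely Slc7a11 (42.4-fold), Prdx1 (5.54-fold), Hmox1 (3.49-fold), Txnrd1 (3.07-fold), Gsr (3.06-fold) and Srxn1 (2.53-fold). Under regorafenib 5 were past 2-fold higher (background 16.6%), Srxn1 being 1.42-fold higher, and Nqo1 was 2.37-fold lower (background 20.6%, and 37.2% in either direction). With total counts Srxn1 in control (log2 ratio 0.99) and Txnrd1 under regorafenib (0.80) fell short of 2-fold, which left 5 and 4 members higher. From M2 to M1 control the summed dendritic cell markers went from 0.63 to 32.0 CPM, the neutrophil markers from 88.8 to 157 CPM and the fibroblast markers from 3.56 to 9.10 CPM. Under regorafenib they went from 2.54 to 38.8, from 132 to 109.7 and from 5.75 to 6.85 CPM, so the neutrophil markers moved the other way. The part of these markers was not tested. In the edgeR fit 6 members rose and none fell, against 18.9% of genes higher, 18.6% lower and 37.5% in either direction. Gsr, at 1.68 ± 0.20 (adjusted p = 0.0023), had a larger value here than against M0, the M2 libraries being its lowest. Srxn1 lost its call without the M1 control library (adjusted p = 0.0923) or the M2 control library (adjusted p = 0.3458), and Txnrd1 without the latter (adjusted p = 0.0505). With total counts 5 members rose and Gclc fell (adjusted p = 0.0174), while Srxn1 did not pass (adjusted p = 0.1302). Nqo1 passed as lower without the M2 control library (adjusted p = 0.0419), and Gclm as higher without the M1 regorafenib library (adjusted p = 0.0111).

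Regorafenib against control asked how the drug moved the members within a state. In M0, Nqo1 was 2.44-fold lower and Gclc 2.01-fold lower with regorafenib, and these were the 2 members past 2-fold, against a background of 11.7% lower, 9.85% higher and 21.6% in either direction. The counting interval lay below 0 for 7 members and above 0 for 3, as it did for 33.7% and 32.7% of genes. Those shares include genes with far fewer counts than the members. Their wider intervals exclude 0 less often, so the shares are not matched to the members for depth. Gclc sat at the limit (log2 ratio -1.01, 95% interval -1.09 to -0.92) and was not past it when libraries were scaled by total counts or when 1 CPM was added to both values. Hmox1 was 1.78-fold lower, Gsr 1.73-fold, Srxn1 1.54-fold and Txnrd1 1.43-fold, while Nfe2l2 was 1.39-fold higher. The median log2 ratio of the members was -0.57, against -0.01 over all genes. From control to regorafenib in M0 the summed macrophage markers were at 31540 and 49460 CPM, the neutrophil markers at 84.8 and 158 CPM and the fibroblast markers at 3.19 and 10.2 CPM, and their part in these ratios was not tested.

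In M1, all 10 members were lower with regorafenib, and under TMM all 10 counting intervals lay below 0. Over all genes, which include genes with fewer counts and wider intervals, 21.3% had theirs below and 15.9% above. None of the 10 members reached 2-fold, as 4.64% of genes did lower, 3.3% higher and 7.94% in either direction. Nqo1 was nearest, at a log2 ratio of -0.97, followed in order of fold decrease by Prdx1 (1.85-fold), Slc7a11 (1.77-fold), Hmox1 (1.69-fold), Srxn1 (1.68-fold) and Gclm (1.58-fold). Nfe2l2 was the least changed, at a log2 ratio of -0.07 (95% interval -0.12 to -0.02). With total counts its ratio was -0.03, within counting error of 0. The median of the members was -0.70, against -0.02 over all genes. The summed M1 markers were lower in the same library, at 12630 against 18820 CPM, as were the neutrophil markers (109.7 against 157 CPM), the M2 markers (8.92 against 36.1 CPM) and the fibroblast markers (6.85 against 9.10 CPM). The macrophage markers were at 34420 against 31920 CPM and the dendritic cell markers at 38.8 against 32.0 CPM. The part of these shifts in the M1 ratios was not tested.

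In M2, Hmox1 was 2.46-fold lower with regorafenib (log2 ratio -1.30, 95% interval -1.33 to -1.26) and was the 1 member past 2-fold, against 5.81% of genes lower, 7.43% higher and 13.2% in either direction. Gclc was 1.38-fold lower and Gsr 1.20-fold lower, and the intervals of these 3 lay below 0, as did those of 31.6% of genes. The other 7 were higher, from 1.04-fold for Txnrd1 to 1.52-fold for Nfe2l2, and their intervals lay above 0, as did those of 26.1% of genes. Neither of these shares over all genes is matched to the members for depth. The median of the members was 0.11, against -0.01 over all genes. The summed M2 markers were lower in that library, at 785 against 1432 CPM. The summed macrophage markers were at 34200 against 22500 CPM, the neutrophil markers at 132 against 88.8 CPM, the M1 markers at 111 against 41.2 CPM, the fibroblast markers at 5.75 against 3.56 CPM and the dendritic cell markers at 2.54 against 0.63 CPM. The part of these shifts in the M2 ratios was not tested.

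**Figure D3:**
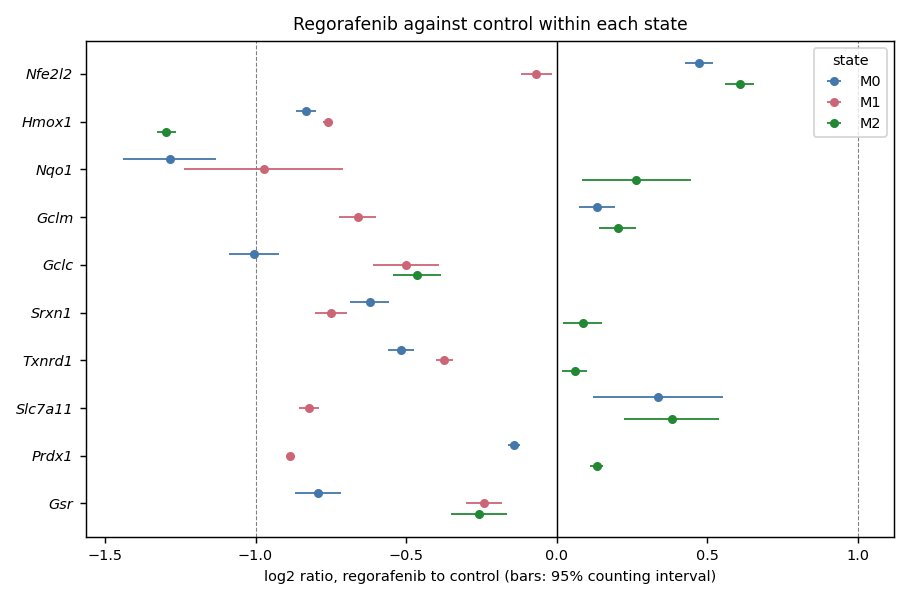
Log2 ratio of regorafenib to control for each gene in M0, M1 and M2, with 95% counting intervals (covering counting error only) and dashed lines at 2-fold. Hmox1, Gclc and Gsr lie below 0 in all 3 states, and all 10 M1 points lie below 0.

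Hmox1, Gclc and Gsr were thus the members with a lower value under regorafenib in each of the 3 states, and no member had a higher value in each. Across the 3 pairs of libraries the edgeR fit passed 0 of 10 members and 0% of 14110 genes. At an unadjusted p under 0.05 the same fit held 1637 genes, 3 of them members, all lower, as were 5.86% of genes. These were Hmox1 (log2 fold change -0.95 ± 0.18, edgeR adjusted p = 0.3016), Gclc (-0.64 ± 0.16, edgeR adjusted p = 0.3255) and Gsr (-0.42 ± 0.16, edgeR adjusted p = 0.4239). DESeq2 passed 301 genes and Hmox1 was the 1 member among them (adjusted p = 3.52e-04). Hmox1 also passed in edgeR without the M1 control library (adjusted p = 0.0478), without the M1 regorafenib library (adjusted p = 0.0474) and with no filter on low counts (adjusted p = 0.0145).

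Under TMM the regorafenib intervals of 7 members lay on opposite sides of 0 in different states, as they did for 20.7% of genes. That share includes genes with far fewer counts, whose wider intervals exclude 0 less often, so it is not matched for depth. With total counts the M1 ratio of Nfe2l2, 1 of the 7, was -0.03, within counting error of 0. The ratio differed most between states for Nqo1, by 1.55 on the log2 scale between M2 and M0 (95% counting interval 1.31 to 1.78). For Slc7a11 the M1 ratio was below the M2 ratio (difference -1.20, interval -1.36 to -1.05), and for Prdx1 likewise (-1.02, interval -1.04 to -0.99). Slc7a11 in M0 and M2 did not differ beyond counting error (0.04, interval -0.22 to 0.31), nor did Gclc in M1 and M2 (-0.04, interval -0.17 to 0.10). With 1 library per condition these differences between states could not be tested.

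Other genes of the pathway were grouped by role. Among 12 regulators and partners of Nrf2, 4 rose and 1 fell in M1 against M0 by the edgeR fit, where 18.5% of all genes rose and 18.2% fell, with a median log2 fold change of 0.42. Maff, a small Maf partner, rose most (5.43 ± 0.41, adjusted p = 7.87e-04), and so did Mafg (0.86 ± 0.16, adjusted p = 0.0092) and Sqstm1, the autophagy adaptor p62 that sequesters Keap1 (1.03 ± 0.28, adjusted p = 0.0338). Bach1, the repressor, fell by 1.89 on the log2 scale (adjusted p = 0.0102). Keap1 did not pass (0.42 ± 0.16, adjusted p = 0.0875). Bach1 was at 107 CPM in M0 control, 188 in M0 with regorafenib, 44.6 in M1 control, 29.2 in M1 with regorafenib, 121 in M2 control and 161 in M2 with regorafenib. The 2 M1 libraries were its lowest.

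Among 14 measured genes of glutathione synthesis and use, 4 rose and 2 fell in M1 against M0, near the 36.7% of all genes that passed. Those that rose were Slc3a2, the heavy chain that pairs with xCT (1.61 ± 0.17, adjusted p = 0.0020), the exporter Abcc1 (1.74 ± 0.20, adjusted p = 0.0022), glutaredoxin Glrx (2.12 ± 0.39, adjusted p = 0.0094) and Ggct (1.61 ± 0.33, adjusted p = 0.0139). The glutathione peroxidases Gpx1 and Gpx3 fell, by 1.26 (adjusted p = 0.0202) and 1.81 (adjusted p = 0.0083). In M0 with regorafenib 5 of the 14 were past 2-fold higher and 2 lower (9.85% and 11.7% of all genes), with Mgst1, a microsomal glutathione transferase, at 127 against 22.6 CPM and Gstm1 at 279 against 109.6 CPM among the higher, and Glrx at 36.9 against 123 CPM and Ggct at 1.30 against 2.90 CPM the lower. In M1 Gsta4, on 16 against 3 counts, was past 2-fold higher and Gsta3, at 4.15 against 12.3 CPM, lower (3.3% and 4.64% of all genes). In M2 Mgst1 was the 1 past 2-fold, at 129.5 against 45.5 CPM, where 7.43% of all genes were past 2-fold higher. The median log2 ratio of the group was 0.33 in M0, -0.16 in M1 and 0.17 in M2, where that of the 10 members was -0.57, -0.70 and 0.11.

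Of 9 thioredoxin and peroxiredoxin genes 2 rose and 1 fell in M1, near the 36.7% of all genes. Prdx5, another peroxiredoxin, rose by 4.56 ± 0.26 (adjusted p = 4.04e-04) and thioredoxin itself, Txn1, by 1.57 ± 0.22 (adjusted p = 0.0037), whereas Txnip, an inhibitor of thioredoxin, fell by 1.08 (adjusted p = 0.0097). None of the 9 was past 2-fold with regorafenib in any state, where 21.6% (M0), 7.94% (M1) and 13.2% (M2) of all genes were. Of 7 enzymes of the pentose phosphate pathway and of other NADPH supply, Me1 rose (1.08 ± 0.20, adjusted p = 0.0093). Idh1 fell by 2.48 (adjusted p = 0.0045), as did Taldo1, which does not itself make NADPH, by 0.89 (adjusted p = 0.0142). Of 2 measured superoxide dismutases Sod2, the mitochondrial form, rose by 4.76 ± 0.22 (adjusted p = 2.75e-04).

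Of 9 genes of heme and iron handling, 4 rose in M1 and 1 fell (18.5% of all genes rose and 18.2% fell). Ferritin heavy chain Fth1 rose by 1.95 ± 0.29 (adjusted p = 0.0048) and Blvrb, a biliverdin reductase, by 1.93 ± 0.28 (adjusted p = 0.0044), while Blvra, the other biliverdin reductase, fell by 1.20 (adjusted p = 0.0032). Cp, the ferroxidase ceruloplasmin, had 1 count in M0 control and 2439 in M1 control, at least 967-fold higher against a floor of 3 counts per library. Slc40a1, the iron exporter ferroportin, had log2 ratios of regorafenib to control of 2.81 (M0), -0.52 (M1) and 1.82 (M2). Fth1 itself was at a log2 ratio of -0.01 in M1 with regorafenib, with a sign that turned under other scalings, where Hmox1 was at -0.76.

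A group of 12 further known targets moved in both directions: 3 rose and 5 fell in M1 against M0, where 18.5% and 18.2% of all genes did. Marco, a scavenger receptor, had 10 counts in M0 control and 7506 in M1 control and rose by 10.50 ± 0.40 (adjusted p = 2.25e-04). Esd (1.72 ± 0.21, adjusted p = 0.0026) and Aox1 (1.97 ± 0.26, adjusted p = 0.0036) also rose. Ephx1, an epoxide hydrolase, fell by 3.99 (adjusted p = 3.62e-04), Fabp5 by 3.21 (adjusted p = 6.46e-04) and the carbonyl reductase Cbr3 by 1.92 (adjusted p = 0.0039). With regorafenib 2 of the 12 were past 2-fold lower in M0 (Cd36, and Marco on 3 against 10 counts), none in M1 and 1 in M2 (Cd36), against 11.7%, 4.64% and 5.81% of genes, and the median log2 ratio of the group was 0.29, -0.23 and 0.11. Cd36, a scavenger receptor for oxidised lipoprotein, was lower with regorafenib, with log2 ratios of -1.29 (M0), -0.63 (M1) and -1.91 (M2). Of 8 genes of the ATF4 pathway, a stress response that also drives Slc7a11, 3 rose and none fell in M1 (18.5% of all genes rose and 18.2% fell): Trib3 (2.09 ± 0.22, adjusted p = 0.0019), Ddit3 (1.56 ± 0.26, adjusted p = 0.0065) and Atf4, the factor itself (1.31 ± 0.20, adjusted p = 0.0049). Psat1, a serine synthesis enzyme, had ratios of -2.52 (M0), 0.46 (M1) and -1.36 (M2) on the same scale. The edgeR fit passed 0 genes of these 8 groups for regorafenib, as it passed none of all genes.

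**Figure D4:**
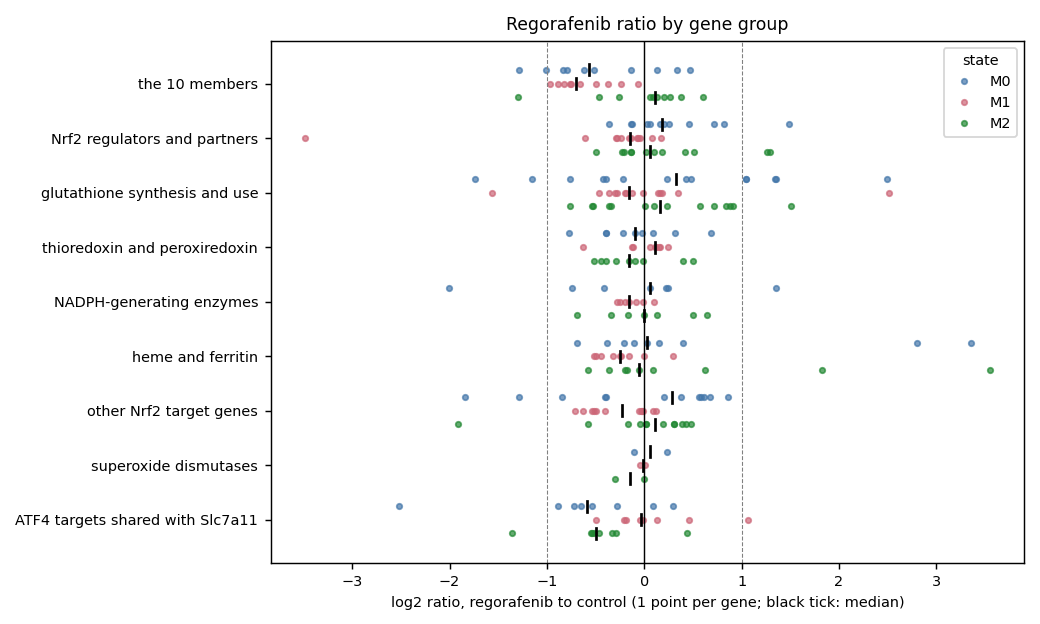
Log2 ratio of regorafenib to control for every measured gene of the 10 members and of 8 further groups, by state, with a black tick at each group's median and dashed lines at 2-fold. The members' medians are -0.57 in M0, -0.70 in M1 and 0.11 in M2, and in M1 all 10 of their points lie below 0.

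The genes with the pattern most like a member's over the 6 libraries were ranked by the root mean square difference of centred log2 CPM, among 9092 genes with at least 100 counts in each library. For Nfe2l2 they were Crtc1 (0.05), Zfp688 (0.06) and Lrrc8a (0.07). For Hmox1 they were Tgm2 (0.20), Osgin2 (0.24) and Csrnp1 (0.27). For Slc7a11 they were Cd274, which encodes PD-L1 (0.24), Il18bp (0.41) and Ier3 (0.42). Cd274 was at 1685 CPM in M1 control and 1477 CPM in M1 with regorafenib, and at most at 83.7 CPM in the other 4 libraries. This is a likeness over 6 libraries, 2 of which, the M1 libraries, stand apart for both genes.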

How the data were processed

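The authors deposited 1 table of counts per gene for the 6 libraries, not normalized. By their methods, TruSeq stranded mRNA libraries were read in pairs of 100 bases, checked with FastQC 0.11.8, trimmed with cutadapt 2.4, and mapped and counted with STAR 2.7.2a on GRCm38 with Gencode M19. The strand column of STAR that was taken is not given in the sources used here, so reads of Gclm and its opposite-strand neighbour may be mixed. Names, positions and exon lengths came from Gencode M21 on GRCm38, in which 53229 of 54446 IDs matched with version, 1180 without it and 37 not at all. Where a symbol had more than 1 ID, the one with most counts was used.

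Counts were scaled with TMM (edgeR 4.0.16, R 4.3.3). A log2 ratio between 2 libraries replaced a count of 0 by 0.5 and carries a 95% exact binomial interval, which covers counting error only. A call was an absolute log2 ratio of at least 1 among the 14917 genes that reached 10 counts in some library, and 3 counts were the floor. The test was edgeR's quasi-likelihood test of state and treatment over all 6 libraries, with filterByExpr, Benjamini-Hochberg adjustment and a threshold of 0.05. DESeq2 1.42.0, other scalings, no filter, no block, each library left out, and NOISeq's probability of at least 0.8 (re-implemented in Python 3.11.15) were alternatives. The fit was also run on simulated counts that had no state effect and no difference between states in response. These data have both, so no conclusion is drawn from that run. Nothing in the labels says that the libraries came from separate cultures or animals. The p-values rest on the part of the response that differs between states, which may hold technical spread, and not on spread between replicates. The members and gene lists were chosen with earlier results of these data known. Beyond the 10 members, the text mainly names genes past 2-fold with at least 100 counts, at most 4 per list and direction. Gsta4 in M1, and Ggct and Marco in M0, are named for regorafenib on fewer counts. It also names Keap1, Bach1, Mafg and Sqstm1, and the 3 genes most like Nfe2l2, Hmox1 and Slc7a11 over the libraries.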

Additional observations from a re-analysis of the deposited data

Results flagged for a closer look

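Under TMM the counting intervals of the regorafenib ratio lay on opposite sides of 0 in different states for 7 members, as for 20.7% of the 14917 genes. That share includes genes with far fewer counts and wider intervals, so it is not matched to the members for depth. These differences between states were not tested, since each value rests on 1 library per condition. Nfe2l2 had log2 ratios of 0.47 in M0, -0.067 in M1 and 0.61 in M2. With total counts its M1 ratio was -0.026, within counting error of 0. Nqo1 had -1.29 in M0, -0.97 in M1 and 0.26 in M2. For Gclm the values were 0.13 in M0, -0.66 in M1 and 0.20 in M2. Srxn1 was at -0.62 in M0, -0.75 in M1 and 0.086 in M2, and Txnrd1 at -0.52, -0.37 and 0.060. The M0, M1 and M2 values were 0.34, -0.82 and 0.38 for Slc7a11, and -0.14, -0.89 and 0.13 for Prdx1. In M1 all 7 ratios were below 0 and in M2 all 7 were above 0. Hmox1, Gclc and Gsr are the members without such a change of sign.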

How the results depend on the processing

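No direction of a call among the members reversed under the alternatives run. Members past 2-fold with regorafenib in M0 numbered 1 instead of 2 with total counts per library and with 1 CPM added. Members that passed for regorafenib across states numbered 1 (Hmox1) instead of 0 with DESeq2 and with no filter on low counts, and 0 to 1 with a library left out. For M2 against M0 they numbered 0 to 1 with a library left out, and for M1 against M0 and M1 against M2, 5 to 7. Srxn1 lost its M1 calls without the block at a similar log2 fold change (1.02 against both M0 and M2, adjusted p = 0.0575 and 0.0564), and with total counts at a smaller one (0.52 and 0.54). The cause was not tested.

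Over all genes, edgeR's 0 calls for regorafenib became 301 with DESeq2, 333 with no filter, and 726 or 814 without the M1 control or M1 regorafenib library. The 28 calls for M2 against M0 became 416 with DESeq2, 408 with no filter, 77 to 294 over the 6 libraries left out in turn, and 0 without the block. The background share past 2-fold with regorafenib was 9.5%, 0.932% and 3.67% in M0, M1 and M2 when NOISeq's probability was also required, and 16.6% in M1 and 21.2% in M2 with no filter. For M2 against M0 that probability gave 4.98% in control and 2.84% under regorafenib, and no filter gave 21.6% and 19.9%. For M1 against M0 the probability gave 22.4% in each treatment, and for M1 against M2 23.1% in control and 21.8% under regorafenib. Depth limits Nqo1 most, with 176 counts in its lowest library. Leaving out 1 library leaves a state with a lone sample, which is assumed to vary like the other states.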
